A study of Mus musculus with 54 samples.

Results

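The 40 genes described here are induced by interferons or serve antigen presentation on MHC class I, and they were chosen by gene symbol from the rows of an expression table of 19068 genes. By role they were 10 GTPases of the GBP and IRG families, 16 antiviral effectors, 5 transcription factors and 9 genes of class I presentation. All 40 had values, and 38 were among the 15424 genes that were tested, those with a mean of at least 1 TPM (a level per gene length, relative to the library's total). Isg15, with a mean of 0.596 TPM, and Oas1a, with 0.998 TPM, were below that filter and are given by level only.

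The RNA came from the late proximal tubule (S3 segment) of mouse kidney, cut out by laser as tubules that stained for the lectin LTL but not for SGLT2, with 70 to 80 tubules in a sample. All mice were DBA males of 14 weeks. Diabetic mice carried 1 Akita allele of the insulin gene Ins2 (Ins2 Akita/+), which gives insulin-deficient diabetes, and nondiabetic (ND) littermates were Ins2+/+. Both were Sglt1-/- (KO) or Sglt1+/+ (WT), and the labels name no Cre or promoter for the deletion. Sglt1 (Slc5a1) is the glucose carrier of this segment.

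Treatment lasted 2 weeks, with vehicle, with the SGLT2 inhibitor dapagliflozin at 10 mg per kg of diet, or with the GLP-1 receptor agonist semaglutide at 3 nmol per kg per day under the skin. The groups were Akita WT semaglutide (5 libraries), Akita KO dapagliflozin (6), Akita WT dapagliflozin (5), Akita KO vehicle (6), Akita WT vehicle (6), ND KO dapagliflozin (6), ND WT dapagliflozin (6), ND KO vehicle (6) and ND WT vehicle (6). Whether samples came from separate animals is not stated in the labels, so p-values measure the spread between these samples, part of which may be technical.

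Interferons bind receptors that signal through JAK kinases to STAT proteins. Type I and type III interferons act through a complex that holds STAT2 and IRF9 and binds the interferon-stimulated response element, and interferon gamma acts at gamma-activated sites and through IRF1. The induced proteins include GTPases that attack the vacuoles of pathogens, effectors that block viral RNA and protein synthesis, and the peptide-loading machinery of class I. Nearly all nucleated cells carry class I, the tubular epithelium among them, and tubule cells can raise it when they meet interferon.

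The response element can be seen in front of several of these genes. RefSeq promoter windows (GRCm38.p6, 250 bases before to 50 after the start) were matched for 30 of the 40 genes. The other 10 were Gbp4, Gbp6, Gbp9, Iigp1, Usp18, Rtp4, Parp14, Zbp1, Nlrc5 and Tap2. The element core, GAAA then any 2 bases then GAAA, searched on both strands, was in the windows of 15 of the 30 genes (50%), against 3.99% of 27025 genes with a window. It was there in all 6 matched GTPases, in 7 of 12 antiviral effectors, in Stat2 as 1 of 4 transcription factors, and in B2m as 1 of 8 class I genes. The gamma-activated site TTCNNNGAA, on both strands, was in 9 of the 30 (30%), against 9.55% of all genes. A match is a run of letters and no proof of binding, and Gbp7, Irgm2, Igtp, Oas1a and Bst2 held both motifs.

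The stretches of 60 bases below lie upstream of the start in the RefSeq window and carry the core in capitals, as read on the gene's own strand. They are shown for 6 GTPases, for B2m as the class I gene whose window carries the core, and for Trim30a, which is described under dapagliflozin. In the GENCODE gene records, those of Irgm1 and Irgm2 and the core of Gbp2 lie within the gene.
Gbp2 (chr3:142620579-142620638, plus strand): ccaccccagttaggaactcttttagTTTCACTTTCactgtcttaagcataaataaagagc
Gbp3 (chr3:142559974-142560033, plus strand): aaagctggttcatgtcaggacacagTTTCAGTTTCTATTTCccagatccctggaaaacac
Gbp7 (chr3:142530258-142530317, plus strand): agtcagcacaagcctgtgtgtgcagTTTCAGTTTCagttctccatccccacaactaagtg
Irgm1 (chr11:48871421-48871480, minus strand): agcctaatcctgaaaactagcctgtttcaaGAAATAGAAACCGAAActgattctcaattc
Irgm2 (chr11:58214888-58214947, plus strand): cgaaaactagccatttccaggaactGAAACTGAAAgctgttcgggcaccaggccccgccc
Igtp (chr11:58199496-58199555, plus strand): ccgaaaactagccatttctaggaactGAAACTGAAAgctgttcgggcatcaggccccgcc
B2m (chr2:122147523-122147582, plus strand): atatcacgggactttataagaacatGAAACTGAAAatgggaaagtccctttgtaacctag
Trim30a (chr7:104465195-104465254, minus strand): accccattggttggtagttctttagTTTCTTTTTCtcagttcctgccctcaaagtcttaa

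The stretches of Igtp and Irgm2 were identical at 57 of 59 aligned bases, and those of Gbp3 and Gbp7 at 25 of 60. In Gbp3 and Irgm1 the core overlapped with a further copy of itself. In B2m the core ended 129 bases from the start.

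Levels per gene length were highest for class I heavy chains and their partners. H2-D1 averaged 207 TPM and H2-K1 130 TPM over the 52 libraries, B2m, the light chain, 88.0 TPM, and Tapbp (tapasin), which holds the heavy chain at the peptide transporter, 78.5 TPM. Tap1 and Tap2, the transporter itself, averaged 7.35 and 10.4 TPM. Among the GTPases the levels were highest for Gbp7 (17.2 TPM) and Irgm1 (14.1 TPM). Among the effectors they were highest for Ifi35 (15.6 TPM) and the RNA-binding Ifit3 (13.8 TPM), and among the transcription factors for Irf1 (21.5 TPM) and Stat2 (19.5 TPM). Isg15, the ubiquitin-like modifier, had no value in 26 of the 52 libraries.

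The spread between libraries of 1 group differed widely between the genes. Within groups the SD of log2(TPM + 1) was 0.26 for H2-D1 and 0.33 for H2-K1, but 0.84 for Gbp6, 0.88 for Bst2 (tetherin, which holds virions at the cell surface) and 0.92 for Psmb10. H2-D1 spanned a 2.3-fold range over all libraries, Gbp6 a 40.1-fold range and Igtp a 44.8-fold range. The inducible proteasome subunits were set beside the constitutive subunits that they replace. Psmb8 stood at a median of 14.6% of Psmb5, Psmb9 at 4.31% of Psmb6 and Psmb10 at 10.8% of Psmb7, in TPM over the 52 libraries. The highest share was 122% for Psmb8 and 122% for Psmb10, both in the same library, ND KO dapagliflozin replicate 3. The medians of that group were 14.9% and 9.88%. For Psmb9 the highest share was 16.3%.

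**Figure D1:**
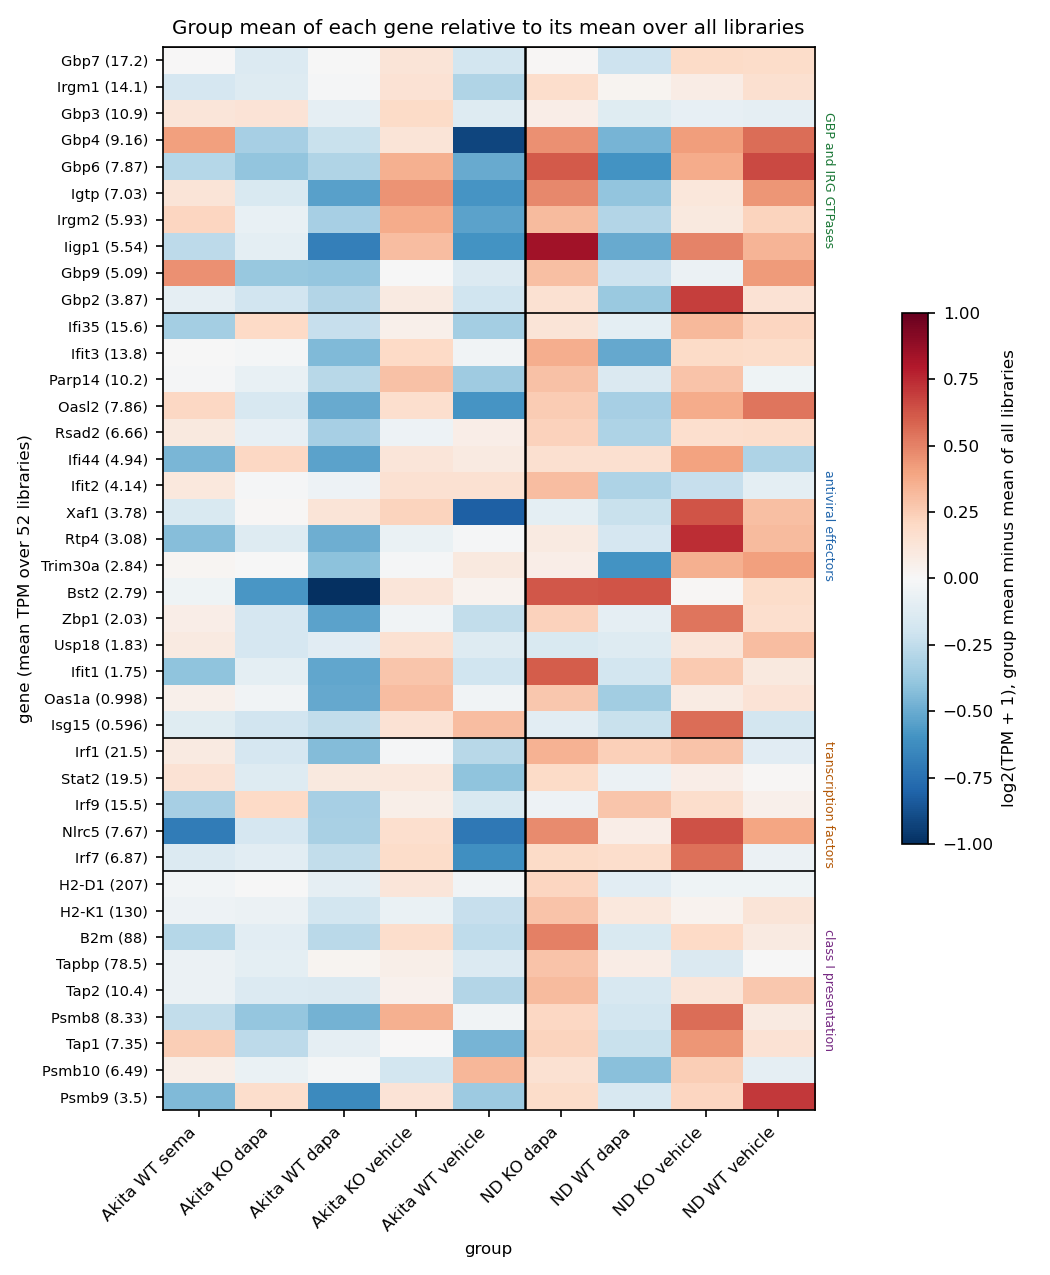
Group means of log2(TPM + 1) for the 40 genes, relative to each gene's mean over all libraries (colour, on the log2 scale), ordered by role and by level. Gbp4 shows the lowest value of its row in Akita WT vehicle, and B2m and Iigp1 the highest of theirs in ND KO dapagliflozin.

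Some libraries and reads limit these values. ND KO dapagliflozin replicate 3 was the highest of all libraries for 17 of the 40 genes, and its mean log2(TPM + 1) over the 40 was 4.15, against 3.67 in the next, ND WT vehicle replicate 6. Its mean log2(TPM + 1) of late proximal tubule markers was the lowest of the 52, at 6.90 against a median of 8.44. These markers include Slc5a1, the deleted gene, so the deletion itself lowers this mean in KO libraries. The median within ND KO dapagliflozin was 8.19. In this library the mean log2(TPM + 1) of class II genes was the highest, at 5.88 against a median of 3.87. That of markers of other nephron segments was 5.17, against a median of 4.13. The part of this make-up in its interferon genes was not tested. ND WT vehicle replicates 1 and 2 had the highest mean log2(TPM + 1) of the markers of other cell types, at 4.4 and 4.02, against a median of 3.38 over all libraries. Results are given with and without these 3 libraries where that changes them. Reads of near-identical copies may be shared. Of the 50-base stretches of their transcripts, 70.7% in Gbp6, 57.6% in Oas1a, 51.2% in Ifit3 and 12.8% in H2-D1 also occur in transcripts of other genes. In Gbp4 the share was 7.7%, most with Gbp11. Exons of Gbp4 overlap those of Gbp8 and Gbp9 on the same strand, at 0.814% and 0.801% of its exon bases. Exons of Igtp and Irgm2 overlap on 1 strand, and those of Psmb9 and Tap1 on opposite strands. Whether reads were counted by strand is not given in the sources used here. These genes are therefore uncertain. DBA mice differ from the C57BL/6J reference genome in their MHC haplotype, and the effect on H2-K1 and H2-D1 was not tested.

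The deleted gene and the segment were checked against the labels. No KO library exceeded 1.34 TPM of Slc5a1, and no WT library was below 27.3 TPM. Slc7a13, a transporter of the S3 segment, lay between 223 and 1529 TPM, while Slc5a2, which marks the early proximal tubule, lay between 3.93 and 205 TPM. The summed TPM of 8 markers of the late proximal tubule had a median of 5795 (2579 to 8217), that of 6 early proximal tubule markers 276 (97.9 to 1584) and that of 10 markers of other nephron segments 943 (451 to 3030). The summed TPM of 12 markers of macrophages and dendritic cells lay between 205 and 521, of which Csf1r alone made up a median of 90.2%, and without Csf1r it lay between 20.4 and 85.8. That of 13 endothelial markers lay between 242 and 525. The summed TPM of 4 markers of T, NK and B cells had a median of 1.82. In such bulk samples, fewer cells of a type and less RNA per cell cannot be told apart.

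Diabetes was compared first in WT mice on vehicle, and Gbp4, a guanylate-binding GTPase, was the 1 gene of the 38 that passed the test. Gbp4 had 2.83, 3.52 and 4.83 TPM (lowest, median and highest) in Akita WT vehicle, against 5.02, 11.2 and 41.5 TPM in ND WT vehicle. All 6 Akita libraries lay below all 6 nondiabetic ones, as in 0.162% of all tested genes. The mean was 3.67 ± 0.731 TPM in Akita WT vehicle and 15.2 ± 13.5 TPM in ND WT vehicle (SD, n = 6 each). The difference in log2(TPM + 1) was -1.48 (SE 0.36), with an adjusted p of 0.0368 (limma, Benjamini-Hochberg over all tested genes), so Gbp4 fell to 0.358-fold on that scale. Of all 15424 tested genes 0.389% passed in this comparison, and 0.0519% passed as lower.

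The Gbp4 call was not firm. The limma adjusted p was 0.204 when only these groups were fitted, 0.173 when adjusted for each library's TPM total, 0.0895 when adjusted for its share of mitochondrial rRNA and 0.0728 with array weights. The call was lost too when any of 8 of the 12 libraries was left out, namely ND WT vehicle replicates 3, 4 and 6 and Akita WT vehicle replicates 1, 3, 4, 5 and 6, where the adjusted p lay between 0.0585 and 0.126. The log2 difference stayed between -1.77 and -1.14 in all these fits and those without the 3 libraries above, and was -1.58 (limma adjusted p 0.0474) when adjusted for the markers of other cells. Vwf, an endothelial gene, was lower in the same comparison (log2 -1.53, SE 0.32, limma adjusted p 0.00844).

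**Figure D2:**
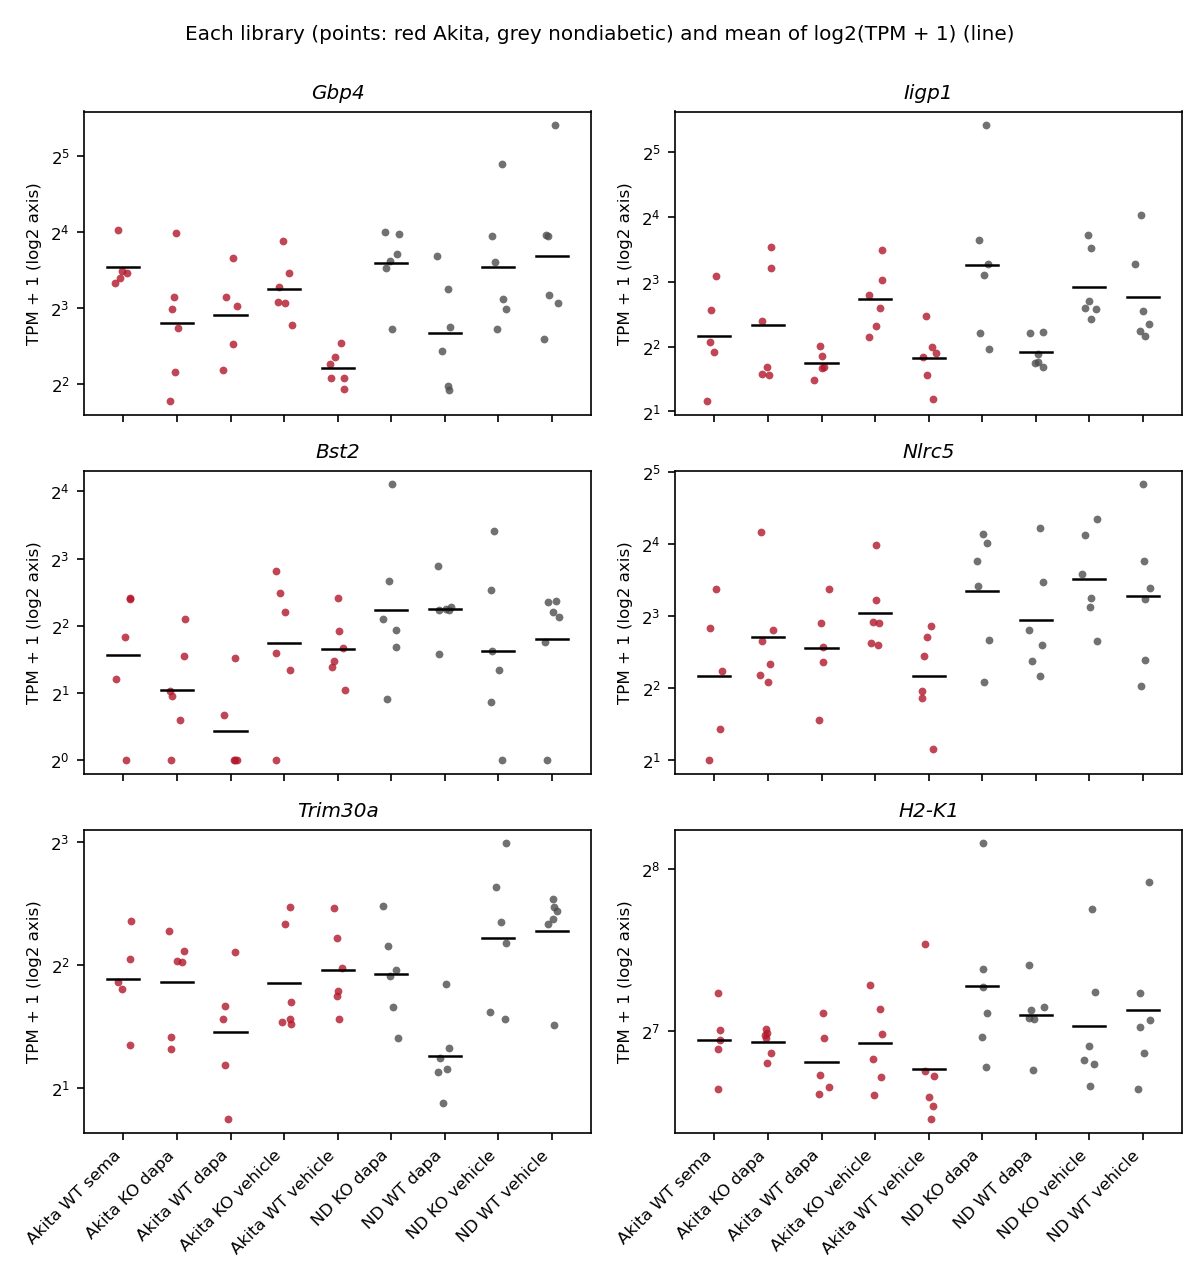
TPM + 1 on a log2 axis for 6 genes in each library (points) of the 9 groups, with the mean of log2(TPM + 1) as a line. The Akita WT vehicle points of Gbp4 lie at 2.83 to 4.83 TPM and do not meet those of ND WT vehicle, while in H2-K1 the groups overlap throughout.

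The other GTPases lay on the same side without passing. All 10 had a log2 difference below 0 between Akita WT vehicle and ND WT vehicle, with a median of -0.66. Over the 38 genes 34 differences were below 0, with a median of -0.36, against 43.6% below 0 and a median of 0.05 over all tested genes. Of the 38 genes 12 had an unadjusted p under 0.05, all lower, against 3.6% of all tested genes. Without the 3 libraries named above the median was -0.34, with 33 of the 38 below 0.

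Oasl2, an antiviral protein related to the oligoadenylate synthetases, had 2.67, 4.30 and 8.38 TPM in Akita WT vehicle, against 5.77, 10.8 and 14.7 TPM in ND WT vehicle, and the groups overlapped (log2 -1.13, SE 0.35, adjusted p 0.162). Tap2 had 5.95, 8.19 and 10.9 TPM in Akita WT vehicle, against 7.32, 13.1 and 15.4 TPM in ND WT vehicle (log2 -0.57, SE 0.21, adjusted p 0.297). Neither passed in limma. The 3 genes with the smallest p on the higher side were far from the threshold, at adjusted p of 0.705 for Ifi44 (log2 0.39), 0.828 for Ifit2 (log2 0.25) and 0.835 for Psmb10 (log2 0.42).

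H2-D1 differed little in these groups. It averaged 199 ± 17.1 TPM in Akita WT vehicle and 201 ± 44.6 TPM in ND WT vehicle (SD, n = 6 each), a log2 difference of 0.01 (SE 0.15). H2-K1 averaged 112 ± 36.4 TPM in Akita WT vehicle and 145 ± 50.2 TPM in ND WT vehicle (log2 -0.36, SE 0.19, adjusted p 0.511). Its 6 Akita libraries included a high value of 184 TPM, and the others lay between 86.7 and 107 TPM.

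Averaged over WT and KO and over vehicle and dapagliflozin, diabetes had no gene of the 38 past the threshold in limma, while 0.966% of all tested genes passed. The log2 differences were below 0 in 35 of 38 genes, against 43.5% of all tested genes, and their median was -0.27, against 0.03. Before adjustment 14 genes had a p under 0.05, all lower, against 4.8% of all tested genes. By role the median was -0.41 for the transcription factors (5 of 5 below 0), -0.32 for the GTPases (9 of 10), -0.27 for class I presentation (8 of 9) and -0.21 for the antiviral effectors (13 of 14). Without the 3 libraries named above, all of them nondiabetic, the median of the 38 genes was -0.22, with 34 below 0. In that fit 0 of the 38 and 74 of 15396 tested genes passed in limma, against 149 of 15424 with all libraries.

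In the single settings outside WT vehicle no gene of the 38 passed in limma. The median was -0.09 in KO vehicle (24 below 0), -0.08 in WT dapagliflozin (23 below 0) and -0.36 in KO dapagliflozin (33 below 0), where 48.4%, 46.8% and 44.6% of all tested genes were below 0. Without ND KO dapagliflozin replicate 3 the KO dapagliflozin median was -0.19, with 30 below 0 and 1 at an unadjusted p under 0.05. The share of all tested genes at that p was not computed without that library. With all libraries 0%, 0.00648% and 0% of all tested genes passed in these settings. Before adjustment 1, 4 and 7 of the 38 had a p under 0.05, all lower, against 2.77%, 1.53% and 2% of all tested genes. The averaged value is the mean over these settings and WT vehicle, so they are no further evidence for it.

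The smallest p values were those of Gbp4 (log2 -0.58, SE 0.18, adjusted p 0.110), Bst2 (log2 -0.76, SE 0.25, adjusted p 0.133) and Nlrc5 (log2 -0.65, SE 0.22, adjusted p 0.146). Nlrc5 is the transactivator of class I genes. It had 1.22, 3.64 and 6.22 TPM in Akita WT vehicle, against 3.08, 8.93 and 27.3 TPM in ND WT vehicle. In KO vehicle mice it had 5.04, 6.48 and 14.9 TPM with Akita, against 5.25, 9.70 and 19.3 TPM without. The groups overlapped in both cases. On dapagliflozin its medians were 4.93 TPM in Akita WT and 5.50 TPM in ND WT, and 4.66 TPM in Akita KO and 11.1 TPM in ND KO.

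Bst2 differed most in WT mice on dapagliflozin. There it had 0, 0, 0, 0.596 and 1.88 TPM in Akita, against 1.99, 3.73 and 6.42 TPM in ND, and the groups did not overlap, as in 0.11% of all tested genes on the lower side. The log2 difference was -1.81 (SE 0.51, p 0.00095 before adjustment) and did not pass in limma after it, where 0.00648% of all tested genes did. In WT mice on vehicle Bst2 had 1.07, 1.99 and 4.31 TPM in Akita, against 0, 3.50 and 4.18 TPM in ND. A 0 here stands for a library in which the table gives the gene no value, as for Bst2 in 8 of 52 libraries.

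On the higher side of averaged diabetes were Ifit2 (log2 0.14, SE 0.15), Gbp3 (log2 0.08, SE 0.12) and Psmb10 (log2 0.04, SE 0.26), each within its error. The directions of Gbp3 and Psmb10 turned under other scalings or covariates. H2-K1 had a log2 difference of -0.27 (SE 0.09, adjusted p 0.168) and H2-D1 one of -0.01 (SE 0.08).

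Other genes of the pathway were counted beside them. Among 39 tested of 44 further interferon-induced genes 1 passed, Helz2, a helicase that is itself induced by interferon. Helz2 had medians of 10.5 TPM in Akita WT vehicle and 14 TPM in ND WT vehicle. Its averaged log2 difference was -0.33 (SE 0.09, limma adjusted p 0.0485, just under the threshold of 0.05), where 0.966% of all tested genes passed. Helz2 was not followed through the alternative fits. The genes that passed numbered 149 in the main fit, 45 when adjusted for the markers of other cells and 154 with array weights. Of the 39 further interferon-induced genes 32 were below 0, against 43.5% of all tested genes, with a median of -0.25. The 11 receptors and signalling genes had 6 below 0 and a median of -0.01, the 10 tested sensors and adaptors 7 below 0 and a median of -0.07, and 0 of these passed. All 7 class II genes were below 0 (median -0.42), while the 14 other class I genes had 4 below 0 (median 0.09) and the 3 constitutive proteasome subunits 0 (median 0.26).

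Markers of other cells moved the same way in these libraries. The averaged diabetes difference was below 0 in 8 of 10 tested markers of macrophages and dendritic cells (median -0.21) and in 13 of 13 endothelial markers (median -0.19). Without Csf1r, which dominates their sum, the macrophage and dendritic markers summed to 26, 32.4 and 44.1 TPM in Akita WT vehicle, against 35.7, 44.8 and 85.8 TPM in ND WT vehicle, and the groups overlapped. That sum without Csf1r was chosen after its values were seen. When adjusted for the markers of other cells, the median of the 38 genes was -0.20 for averaged diabetes, with 34 of 38 below 0, and -0.24 in WT vehicle, with 31 of 38 below 0. The part of each cell type in the result was not tested.

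**Figure D3:**
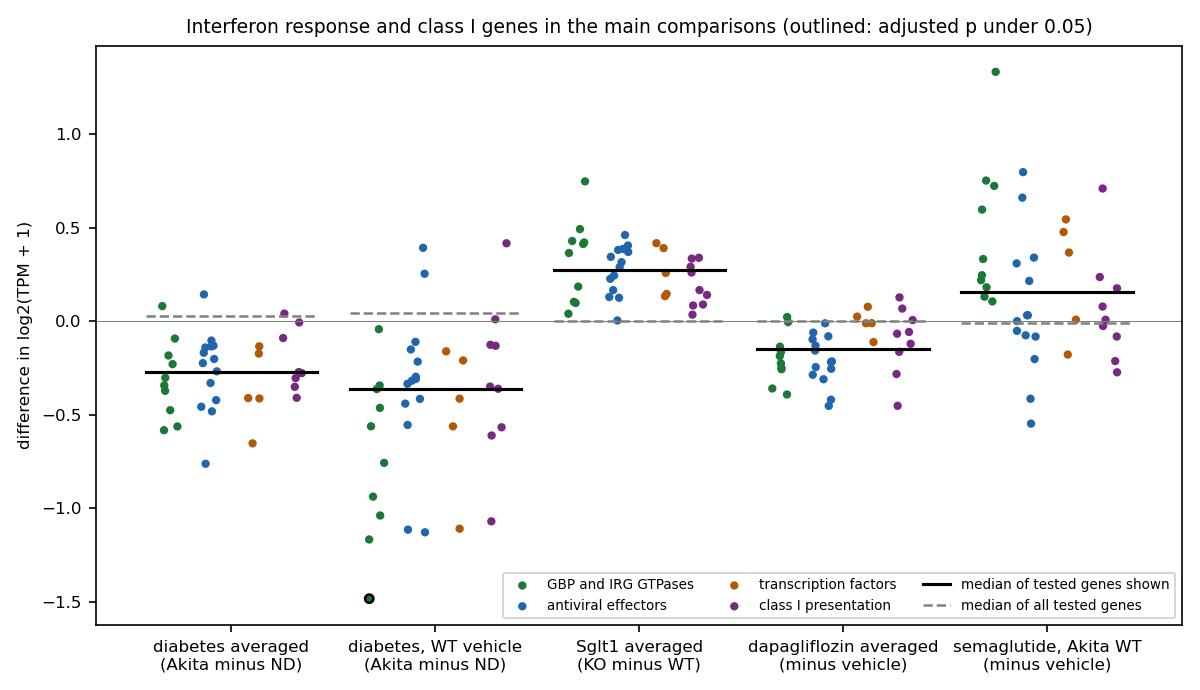
Differences in log2(TPM + 1) of the 38 tested genes in 5 comparisons, coloured by role, with the median of these genes (solid line) and of all tested genes (dashed line). Gbp4 in Akita WT vehicle against ND WT vehicle, at -1.48, is the outlined point that passed the test, and the knockout points all lie above 0.

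Loss of Sglt1, averaged over diabetes and treatment, gave a log2 difference above 0 in 38 of 38 genes, and in 37 with array weights, when adjusted for the TPM total, or without the 3 libraries named above. Without ND KO dapagliflozin replicate 3 alone it was above 0 in 35 and below 0 in 3. No gene of the 38 passed in limma, where 0.0519% of all tested genes did. The median was 0.28, against 0.00 over all tested genes, of which 50.6% were above 0. Before adjustment 13 of the 38 had a p under 0.05, all higher, against 3.79% of all tested genes. The largest of these differences was that of Iigp1.

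Iigp1, an IRG GTPase that coats the vacuoles of parasites, had an averaged log2 difference of 0.75 (SE 0.20, adjusted p 0.164). In Akita mice on vehicle it had 3.43, 5.48 and 10.3 TPM in KO, against 1.30, 2.65 and 4.55 TPM in WT (log2 0.90, SE 0.39). In ND mice on dapagliflozin it had 2.90, 8.12 and 41.6 TPM in KO, against 2.20, 2.55 and 3.68 TPM in WT (log2 1.35, SE 0.39, and 0.92, SE 0.35, without ND KO dapagliflozin replicate 3). In both cases the groups overlapped, and the adjusted p was 0.999 and 0.499 in limma. In ND mice on vehicle the medians were 5.27 TPM in KO and 4.48 TPM in WT (log2 0.16, SE 0.39), and in Akita mice on dapagliflozin they were 3.24 TPM in KO and 2.20 TPM in WT (log2 0.59, SE 0.41).

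Ifit1, which binds RNA without a proper cap, was low in all groups. It had 1.15, 1.92 and 3.95 TPM in Akita KO vehicle, against 0.874, 1.29 and 1.42 TPM in Akita WT vehicle, and its averaged log2 difference was 0.46 (SE 0.15, adjusted p 0.454). Parp14, an ADP-ribosyltransferase, had 8.01, 11.9 and 16.6 TPM in Akita KO vehicle, against 4.66, 7.21 and 11.6 TPM in Akita WT vehicle, with an averaged log2 difference of 0.41 (SE 0.14, adjusted p 0.502). Neither passed. For B2m the averaged difference was 0.34 (SE 0.13, adjusted p 0.559), for H2-D1 0.14 (SE 0.08) and for H2-K1 0.09 (SE 0.09).

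The knockout differences are described here by setting. The median of the 38 genes was 0.01 in ND vehicle (22 above 0), 0.33 in Akita vehicle (33 above 0), 0.40 in ND dapagliflozin (34 above 0) and 0.16 in Akita dapagliflozin (28 above 0), with 0 genes past the threshold in limma in each, where 0.0195%, 0.0259%, 0.0324% and 0.0195% of all tested genes passed. The shares of all tested genes above 0 were 55.3%, 50%, 45.8% and 48.9%. Before adjustment 1, 10, 12 and 1 of the 38 had a p under 0.05, all higher, against 3.31%, 1.5%, 3.37% and 1.71% of all tested genes. The ND dapagliflozin value includes ND KO dapagliflozin replicate 3, and it was also fitted without that library, a choice made after the data were seen. The ND dapagliflozin median was then 0.21, with 32 of 38 above 0, 3 at an unadjusted p under 0.05 and 0 past the threshold, and the averaged median was 0.23. The share of all tested genes at that unadjusted p was not computed without that library. The difference of these effects between ND and Akita on vehicle was tested as diabetes by knockout, and 0 of the 38 and 0% of all tested genes passed in limma, with 3 of the 38 at an unadjusted p under 0.05 (4.01% of all tested genes). For diabetes by knockout averaged over drug, and knockout by dapagliflozin averaged over diabetes, 0% of all tested genes passed too. Slc5a1 lies on chromosome 5, as do 4 of the tested genes, Gbp4, Gbp6, Gbp9 and Oasl2, at 72 to 81.8 Mb from it (GRCm38). Their median was 0.40, with Gbp9 at 0.04, against 0.26 for the 34 on other chromosomes.

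Gbp4 in Akita mice on vehicle was higher in KO without overlap, at 5.83, 8.09 and 13.8 TPM in KO, against 2.83, 3.52 and 4.83 TPM in WT. Groups did not overlap on the higher side in 0.0778% of all tested genes. In limma the log2 difference was 1.05 (SE 0.36, adjusted p 0.999). This comparison shares the Akita WT vehicle libraries with the diabetes comparison, so they are not independent.

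When all libraries were rescaled to the same total, 4 genes passed for the averaged knockout, namely B2m, H2-D1, Ifit1 and Iigp1. Of all tested genes 169 of 14400 passed after that rescaling, against 8 of 15424 on the deposited scale. That scaling moved the median of all tested genes to 0.19, and relative to it the median of the 38 genes was 0.20, against 0.27 on the deposited scale. Mitochondrial rRNA is part of that total and made up 20.3 to 52.3% of a library. In the markers the averaged knockout median was 0.10 for macrophages and dendritic cells and 0.06 for endothelium.

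Dapagliflozin, averaged over genotype and diabetes, had no gene of the 38 past the threshold, and 0% of all tested genes passed. The log2 differences were below 0 in 32 of the 38, against 50% of all tested genes, with a median of -0.15, against 0.00. At an unadjusted p under 0.05 there were 4, all lower, against 1.75% of all tested genes. The 4 were Trim30a, Psmb8, Gbp2 and Rtp4. Without the 3 libraries named above the median was -0.18, with 34 of the 38 below 0.

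Trim30a, a TRIM protein that restrains inflammatory signalling in mice, had the smallest p (averaged log2 -0.45, SE 0.13, adjusted p 0.999). In ND WT mice it had 0.838, 1.30 and 2.58 TPM on dapagliflozin, against 1.85, 4.30 and 4.79 TPM on vehicle (log2 -1.01, SE 0.25, adjusted p 0.336). The groups overlapped through 1 low vehicle library, and the difference did not pass in limma. In Akita WT mice Trim30a had 0.678, 1.28, 1.94, 2.17 and 3.30 TPM on dapagliflozin, against 1.94, 2.70 and 4.51 TPM on vehicle. In Akita KO mice its medians were 3.07 TPM on dapagliflozin and 2.10 TPM on vehicle.

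Psmb8, an inducible proteasome subunit, had an averaged log2 difference of -0.45 (SE 0.18, adjusted p 0.999). Gbp2 had one of -0.36 (SE 0.15, adjusted p 0.999). In ND KO mice Gbp2 had 2.14, 4.16 and 6.73 TPM on dapagliflozin, against 2.96, 6.59 and 15.3 TPM on vehicle, with overlap. On the higher side Tapbp had the smallest p (log2 0.13, SE 0.10), followed by H2-K1 (log2 0.07, SE 0.09) and Stat2 (log2 0.08, SE 0.12), each near its error.

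By setting the median for dapagliflozin was -0.33 in ND WT (32 below 0), 0.05 in ND KO (17 below 0), 0.00 in Akita WT (19 below 0) and -0.25 in Akita KO (31 below 0), and 0 genes passed in limma in each, against 0.00648% of all tested genes in ND WT and 0% in the other settings. Of all tested genes 44.9%, 53.9%, 49.7% and 51.1% were below 0. Without ND KO dapagliflozin replicate 3 the ND KO median was -0.12, with 28 below 0. Before adjustment 7, 1, 3 and 1 of the 38 had a p under 0.05 in either direction, against 7.03%, 4.74%, 2.39% and 3.13% of all tested genes. In ND KO the 1 gene was higher. Without ND KO dapagliflozin replicate 3, 0 were higher and 2 lower at that p, and the share of all tested genes was not computed. The ND WT dapagliflozin libraries, at 2.69 to 3.17 in mean log2(TPM + 1) over the 40 genes, lay mostly below those of ND WT vehicle, at 3.03 to 3.67. The difference of the dapagliflozin effect between Akita and ND was tested in WT mice, and 0 of the 38 and 0% of all tested genes passed in limma, with 5 of the 38 at an unadjusted p under 0.05 (4.42% of all tested genes). Gbp4 had the highest of these differences (log2 1.72, SE 0.52, adjusted p 0.999). This value contains the Akita WT vehicle and ND WT vehicle libraries in which Gbp4 was called, so it is not independent of that call.

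Semaglutide was compared with vehicle in Akita WT mice, and 0 of the 38 genes and 0% of all tested genes passed. The log2 differences were above 0 in 27 of the 38, against 48.6% of all tested genes, with a median of 0.15, against -0.01. At an unadjusted p under 0.05 there were 5, all higher, against 2.42% of all tested genes. The 5 were Gbp4, Stat2, Irgm2, Oasl2 and Tap1.

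Gbp4 had 9.03, 9.54, 10.1, 10.2 and 15.4 TPM on semaglutide, against 2.83, 3.52 and 4.83 TPM on vehicle. All 5 semaglutide libraries lay above all 6 vehicle libraries, as in 0.363% of all tested genes on the higher side. The log2 difference was 1.33 (SE 0.37, p 0.000842 before and 0.433 after adjustment in limma). Against ND WT vehicle, at 5.02, 11.2 and 41.5 TPM, the semaglutide libraries overlapped (log2 -0.15, SE 0.37). The semaglutide and the diabetes comparison share the Akita WT vehicle libraries, and those 6 were low in Gbp4 beside every other group mean.

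Tap1 also did not overlap, at 5.86 to 11.4 TPM on semaglutide, against 3.05 to 5.56 TPM on vehicle (log2 0.71, SE 0.33, adjusted p 0.942). Stat2 had 15.6, 18.3, 20.0, 25.4 and 26.4 TPM on semaglutide, against 10.1, 14.5 and 16.8 TPM on vehicle, with overlap (log2 0.54, SE 0.24, adjusted p 0.942). Irgm2 had 3.57, 5.40, 5.84, 7.78 and 11 TPM on semaglutide, against 2.05, 3.03 and 5.82 TPM on vehicle (log2 0.75, SE 0.33, adjusted p 0.942). None of these passed. On the lower side Ifi44 (log2 -0.55, SE 0.32), Rtp4 (log2 -0.41, SE 0.39) and Irf9 (log2 -0.18, SE 0.28) had the smallest p.

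Taking each library as the mean log2(TPM + 1) of the 40 genes gives the order of the groups as a description. From highest to lowest the group means were 3.37 in ND KO vehicle, 3.36 in ND KO dapagliflozin, 3.28 in ND WT vehicle, 3.24 in Akita KO vehicle, 3.04 in Akita WT semaglutide, 3.00 in Akita KO dapagliflozin, 2.94 in ND WT dapagliflozin, 2.86 in Akita WT vehicle and 2.80 in Akita WT dapagliflozin. Neighbours in this order differ by less than the SD within groups, which ran between 0.08 in Akita WT vehicle and 0.48 in ND KO dapagliflozin. The ND KO dapagliflozin mean includes replicate 3, at 4.15, while the other libraries of that group lay between 2.84 and 3.57. The place of that group in the order depends on this library, and the order was not recomputed without it. The 6 Akita WT vehicle libraries, at 2.71 to 2.96, lay below the 6 of ND WT vehicle, at 3.03 to 3.67. This mean is made of the genes compared above, chosen with earlier results known, so it is no further evidence of that difference.

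**Figure D4:**
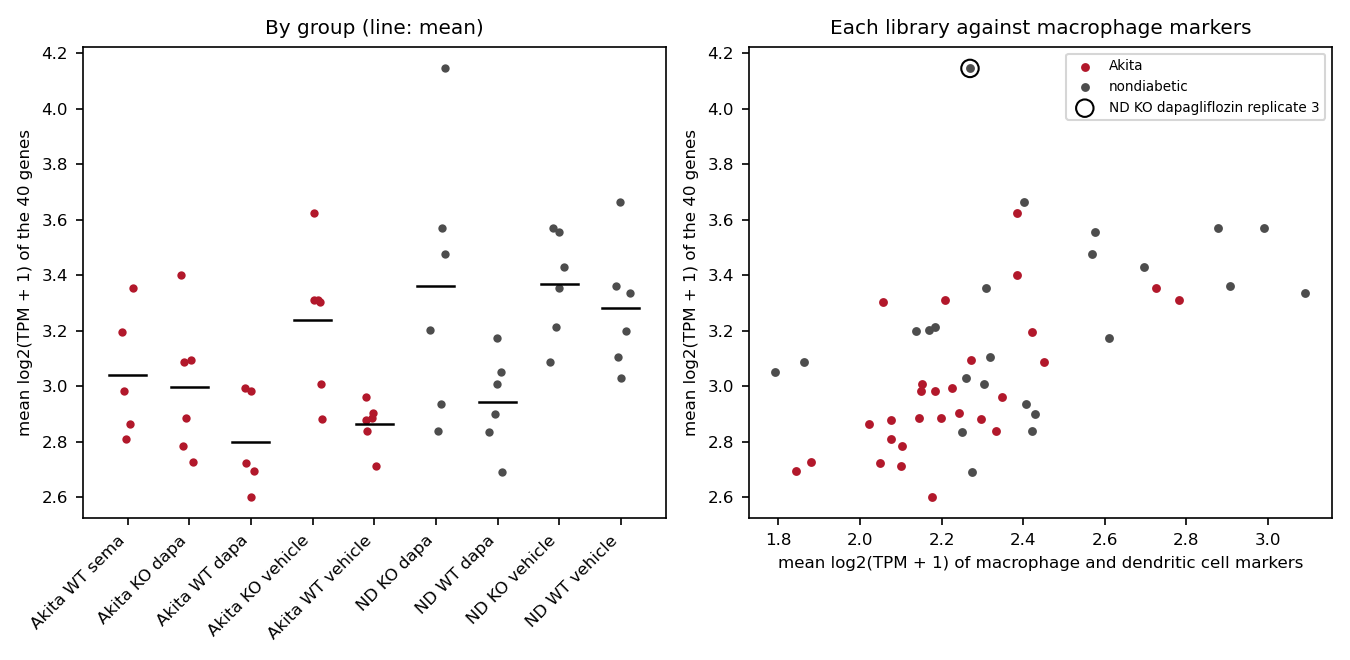
Left, the mean log2(TPM + 1) of the 40 genes in each library by group (line, group mean). Right, the same value against the mean log2(TPM + 1) of markers of macrophages and dendritic cells. The circled library, ND KO dapagliflozin replicate 3, is the highest at 4.15 and lies near the middle in these markers.

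Across the 52 libraries, with group means removed, the genes did not vary as a single block. Over the 780 pairs the median Spearman rho was 0.15. Within the GTPases it was 0.41, and 22 of their 45 pairs had an adjusted p under 0.05 (permutation within groups, two-sided, adjusted over the 780 pairs). Within the antiviral effectors it was 0.19, with 7 of 120 pairs. All 74 pairs past that threshold were positive.

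The closest pair was Gbp6 and Iigp1 (Spearman rho 0.73, Pearson r 0.78, each with a permutation p of 1e-05, the smallest that 100000 permutations can give, adjusted to 0.0013 and 0.0006). Without the 2 libraries farthest from the median of Gbp6, r was 0.71. B2m and H2-K1, the chains of 1 molecule, had rho 0.72 and r 0.74, with the same permutation p. Without the 2 libraries farthest from the median of B2m, r was 0.71. Among the effectors the closest were Ifit2 and Ifit3 (rho 0.66, r 0.67, permutation p 1.5e-05 and 1e-05), neighbours on chromosome 19.

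Class I genes and transcription factors were among the partners of the GTPases. B2m had rho 0.65 with Gbp6 and 0.63 with Iigp1, Irf1 had 0.62 with Iigp1, and Nlrc5 had 0.56 with Gbp2. Iigp1 had 15 partners past the threshold, Gbp6 14 and Igtp 13, while 9 genes had 0, namely Gbp3, Rtp4, Bst2, Usp18, Oasl2, Isg15, Parp14, Psmb10 and Tapbp. Igtp with Irgm2 (rho 0.63) and Psmb9 with Tap1 (rho 0.56) are pairs with overlapping exons. Points share depth and scaling within a library, so part of a correlation may come from these, which was not tested.

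**Figure D5:**
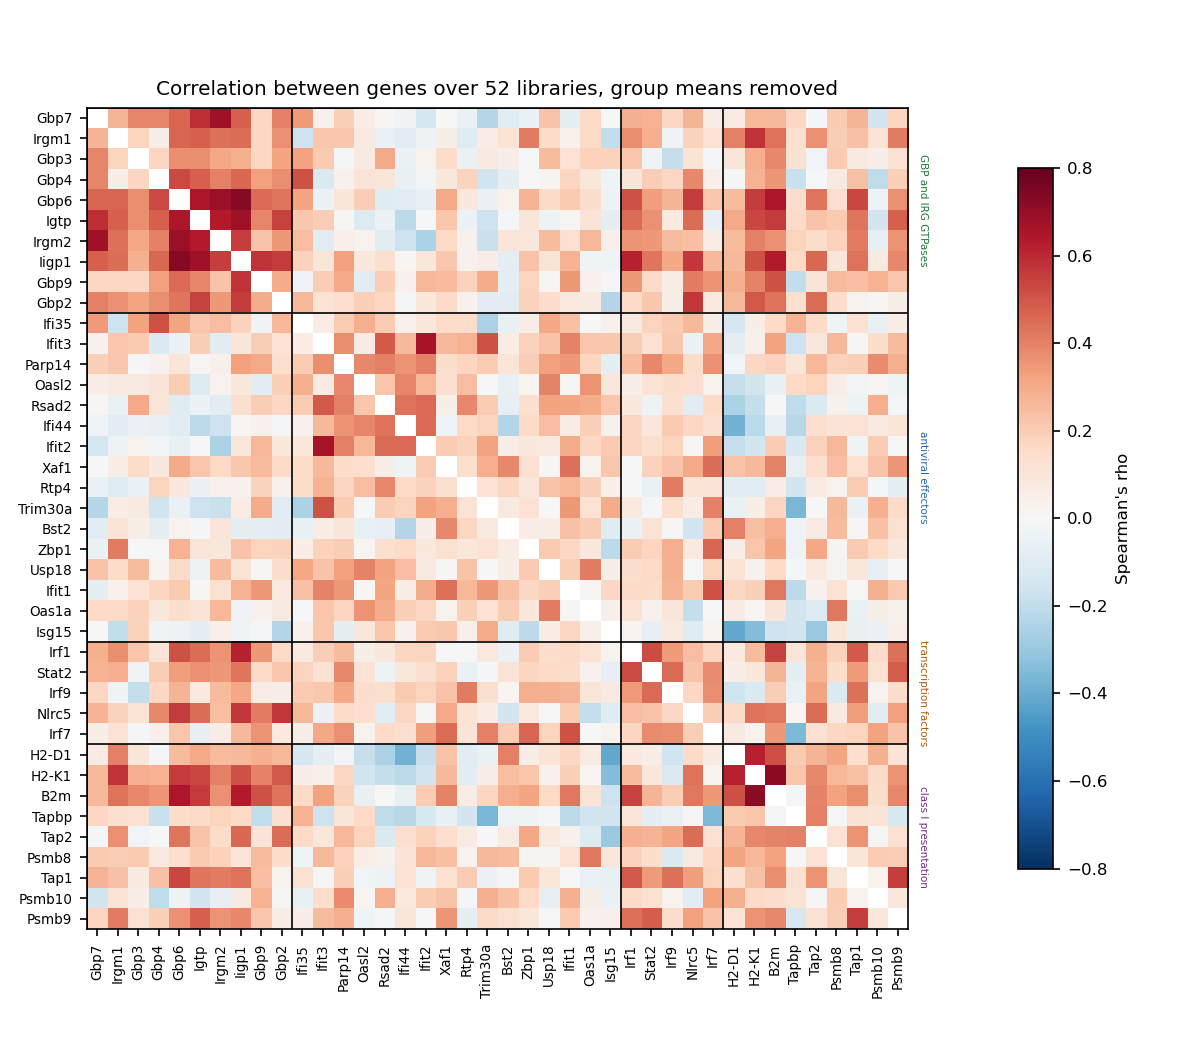
Spearman's rho between each pair of the 40 genes over 52 libraries after the group means were removed, ordered by role and level. The GTPases form a positive block, with Gbp6 and Iigp1 at 0.73, and Ifit2 and Ifit3 stand at 0.66.

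The mean of the 40 genes was set beside other lists across the libraries, with group means removed, as a description without a test. Pearson r was 0.83 with the 42 further interferon-induced genes that had values, 0.65 with class II genes, 0.40 with markers of macrophages and dendritic cells, 0.16 with endothelial markers and -0.46 with markers of the late proximal tubule. The points share depth and scaling. For each list the 2 libraries farthest from the median of that list were then left out, which need not be the same 2 for each. These values were then 0.80, 0.49, 0.39, 0.32 and -0.33.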

How the data were processed

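Tubules were laser-captured in 54 samples of 9 groups, and libraries were made with a stranded total RNA kit for very small inputs, per the labels' protocols. The deposited values are log10 TPM per gene, computed by the authors, and the submitters' processing notes name GRCm38. Aligner, scaling, read depth and strand setting were not given in the sources used here. The table had columns for 52 samples, and its title says that outliers were removed. Akita WT semaglutide replicate 1 and Akita WT dapagliflozin replicate 2 were not analysed here. The values were turned back into TPM, and a blank was taken as 0. TPM summed to 984393 to 2253870 in a library, and 16206 to 18421 genes had a value.

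Differences were tested with limma 3.58.1 in R 4.3.3 on log2(TPM + 1), with all 9 groups in 1 fit, a trended and robust variance, and Benjamini-Hochberg adjustment over 15424 genes, those whose mean reached 1 TPM. Genes with an adjusted p under 0.05 were called. A fold on this scale understates the change of low genes. The same code was tested on simulated data. Alternatives were another pseudocount, no filter, 2 rescalings, array weights, the compared groups alone, 3 covariates, and libraries left out. Genes named are the 3 with the smallest p in each direction of each main comparison, those called, and the highest 2 of each role by level. Others named were chosen after their values were seen. The members and lists were chosen with earlier results of these data known.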

Additional observations from a re-analysis of the deposited data

Results flagged for a closer look

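Sets of libraries, each a gene in a group, were looked at on log2(TPM + 1) for only part of the genes named here. In 9 of the 126 sets 1 library stood apart by Dixon's test at the 95% level, where chance gives about 1 in 20. In ND KO dapagliflozin these were Gbp6 at 55.3 TPM and Irf1 at 72.46 TPM as the highest libraries, and Gbp4 at 5.595 TPM as the lowest. In Akita WT semaglutide the highest Gbp4 library had 15.39 TPM, and without it every other semaglutide library was still above the vehicle libraries. In Akita WT dapagliflozin the highest Oasl2 library had 18 TPM, and in Akita KO dapagliflozin the highest Nlrc5 library had 16.87 TPM. In Akita WT vehicle the highest H2-K1 library had 184.1 TPM. In ND WT vehicle the lowest libraries stood apart, at 1.853 TPM for Trim30a and at 0 TPM for Bst2.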

How the results depend on the processing

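The 1 gene called for diabetes in WT vehicle (Gbp4) became 0 with array weights, in the compared groups alone, and when adjusted for the TPM total or for mitochondrial rRNA, and lay between 0 and 1 with 1 library left out. The cause was not tested. Rescaling to equal totals moved the median of that comparison to -0.669, where the median of all tested genes was -0.30. Under the same rescaling 4 genes were called for the averaged knockout, where 169 of 14400 tested genes were called, against 8 of 15424 before it. Among the 4 were Iigp1 at 0.83 (adjusted p 0.027) and Ifit1 at 0.49 (adjusted p 0.0483 in limma). The median of all tested genes under that rescaling was 0.28 for semaglutide. Directions turned for Gbp3 in averaged diabetes (-0.01113 rescaled, -0.03472 with the score of other cells), for Psmb10 in the same comparison (-0.04806 rescaled, -0.0379 with the sum of TPM, -0.06876 with mitochondrial rRNA, and -0.04351 to 0.156 with 1 library left out), for Ifit2 in WT vehicle diabetes (-0.09714 rescaled) and for Irf9 with semaglutide (0.1247 rescaled, -0.3545 to 0.07061 with 1 library left out, the highest without Akita WT semaglutide replicate 5).

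With 1 library left out the median lay between -0.30 and -0.22 for averaged diabetes, -0.46 and -0.28 in WT vehicle, 0.23 and 0.32 for the knockout, -0.20 and -0.11 for dapagliflozin, and 0.09 and 0.27 for semaglutide. No paired analysis was possible because the labels number the libraries without pairing them across groups. The labels give no batch. Read depth is unknown, so low values such as those of Isg15 and Bst2 carry no counting interval.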
